A study of Rattus norvegicus with 6 samples.

Results

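The genes described here build and acidify the lysosome, digest its contents or form the autophagosome that delivers cargo to it. They were chosen by symbol with no filter on their values, though earlier results of these data were known. The subunits of the vacuolar H+-ATPase (V-ATPase), the cathepsins, the lysosome-associated membrane proteins (LAMPs) and the transcription factor Tfeb belong to them. So do the autophagy genes of the Atg, Ulk1, Becn1, Wipi, LC3 and GABARAP families with the receptor Sqstm1. The arrays named 61 of them, and 57 had a probeset of their own, 83 probesets in all, among 12603 genes measured. The other 4, Map1lc3b, Map1lc3b2, Gabarapl2 and Gabarapl3, appeared only on probesets shared between 2 genes and were not assigned a value.

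The V-ATPase pumps protons into the lysosome. Its V1 sector hydrolyses ATP in the cytosol and turns its V0 sector, which lies in the membrane and carries the protons. The acid pH activates the cathepsins, the proteases of the lumen, while the heavily glycosylated LAMPs line the membrane. In autophagy the ULK1 complex and the Beclin 1 lipid kinase start a cup of membrane, WIPI proteins bind the lipid made there, ATG2 and ATG9 supply lipid, and conjugation enzymes attach LC3 and GABARAP proteins (the ATG8 family) to the cup. The receptor p62, the product of Sqstm1, ties cargo to them, and TFEB and its relatives switch on many lysosomal and autophagy genes when mTORC1, a kinase complex at the lysosome, is inactive. In the pancreatic β-cell autophagy also removes insulin granules and misfolded proinsulin.

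The cells were INS-1, a rat insulinoma line that serves as a β-cell model, and belonged to 1 clone in which doxycycline (Dox) turns on a fusion of GFP and insulin 2 carrying C96Y, the Akita mutation. Mutant proinsulin misfolds and stresses the endoplasmic reticulum (ER). The 3 groups were cells given Dox with the compound 4u8c at 5 μM, which blocks the endoribonuclease of the ER stress sensor IRE1, cells given Dox alone, and untreated cells that carry the same transgene. Treatment lasted 48 h, with Dox at 4 μg/mL in the sample labels and at a lower concentration in the study's methods. Each group had 2 arrays, 1 from each of 2 independent experiments. All Dox-treated cells also made the mutant protein, so that effects of doxycycline itself and of mutant proinsulin cannot be told apart, and arrays of cells given 4u8c alone were not analysed here. The questions were which of these genes the mutant protein changed and which changes the inhibitor altered.

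The values are log2 signals relative to a middle value of each probeset within an experiment. All probesets of experiment 1 (100%) had a 3-array median of 0. Only 0.84% of those of experiment 2 did, but in 48.9% of them 2 of the 3 arrays had values of equal size and opposite sign, the form that a median of 0 over 4 arrays takes. Levels were lost by this centring, so that genes cannot be ranked by abundance, the identity of the cells cannot be checked by marker levels (10 of 13 listed β-cell markers had a probeset), and groups are compared within an experiment. In experiment 1 the 3 arrays held exactly the same value in 25.5% of all probesets, against 0% in experiment 2, and 11 of the 57 genes were equal on all 3 arrays of experiment 1, Tfeb among them. The cause of these ties was not tested. The values of the Dox array of experiment 2 spread most, with an SD over all probesets of 0.176, against 0.0502 to 0.117 on the other 5 arrays. Control RNAs spiked in before labelling had a 5′ signal, relative to their 3′ signal, that differed from the untreated array of the same experiment by 0.04 and −0.25 on the Dox+4u8c arrays and by −0.13 and −0.50 on the Dox arrays (log2, median of 4 control RNAs, experiments 1 and 2). The part of labelling in the results was not tested. In bulk RNA a smaller share of some cells and less RNA per cell cannot be told apart either.

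No larger share of these genes than of all genes was called with Dox, and a gene that was not called may still have changed. With Dox, 2 of the 57 genes rose against untreated cells (3.51%) and 0 fell at an adjusted p under 0.05 (limma, Benjamini-Hochberg over 12603 genes), beside 6.43% of all genes that were called in either direction, 4.42% higher and 2.01% lower. At an unadjusted p under 0.05 the counts were 9 in all, 6 higher and 3 lower, or 15.8%, 10.5% and 5.26% of the 57 genes, beside 19.6%, 11.2% and 8.44% of all genes. The 2 genes were Atg13, the scaffold of the ULK1 complex that starts autophagy, and Wipi1, which binds phosphatidylinositol 3-phosphate on the growing membrane. With 4u8c added, 0 of the 57 genes passed the test against Dox alone, beside 1.79% of all genes (0.175% higher, 1.61% lower), and 0 passed against untreated cells, beside 2.3% of all genes (1.17% higher, 1.13% lower). The unadjusted counts against Dox alone were 7 genes (12.3%, beside 11.2% of all genes), 1 higher (beside 2.79%) and 6 lower (beside 8.44%). Against untreated cells they were 8 genes (14.0%, beside 15.4%), 3 higher (beside 6.27%) and 5 lower (beside 9.15%). The 3 comparisons share arrays, each group entering 2 of them. At such shares of all genes a set of few genes can easily hold 0 calls. A count of 0 in the small sets below therefore does not set them apart.

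The sizes were small. The log2 changes with Dox against untreated cells ran between −0.27 (Lamp5) and 0.48 (Atg13), with a median of 0.01, which was also the median of all genes. The median size without regard to sign was 0.07 for the 57 genes and 0.07 for all genes. None of the 57 reached a change of 1.5 fold (0.58 on the log2 scale), as 1.14% of all genes did, and the 95% interval lay inside 1.5 fold in either direction for 56 of them, Atg13 being the exception. With Dox+4u8c the changes ran between −0.37 (Atg13) and 0.24 (Atg10) against Dox alone and between −0.20 (Atp6v0a1) and 0.25 (Wipi1) against untreated cells, and all 57 intervals lay inside 1.5 fold in both comparisons, in which 0.397% and 0.46% of all genes reached 1.5 fold. The standard errors were 0.05 to 0.12. In 14 or 15 of the 57 genes per comparison the difference in experiment 1 was exactly 0. The intervals take these ties, whose cause was not tested, as measured values and may be too narrow for those genes. In simulated data with 1 spread per gene on all arrays and no ties, the same test found 80% of genes changed 1.5 fold by Dox. The measured arrays differed in spread and held ties, so that the share found on them may differ.

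Direction was shared by both experiments in most of the genes that could be compared. Differences of exactly 0 in experiment 1, in 14 or 15 of the 57 genes per comparison, count in neither direction. With Dox, 18 of the 57 genes were higher and 17 lower than untreated in both experiments (31.6% and 29.8%), beside 26.6% and 24.8% of all genes. With Dox+4u8c against Dox alone, 12 were higher and 19 lower in both (21.1% and 33.3%), beside 19.0% and 26.9% of all genes. Against untreated cells the Dox+4u8c counts were 16 higher and 20 lower (28.1% and 35.1%), beside 23.9% and 28.9% of all genes. Of the genes with a difference in both experiments, 35 of 42 (83.3%) had the same direction with Dox against untreated cells, beside 68.8% of such genes overall. The shares were 31 of 43 (72.1%, beside 63.6%) with Dox+4u8c against Dox and 36 of 42 (85.7%, beside 72.6%) with Dox+4u8c against untreated cells. These differences from all genes were not tested.

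**Figure D1:**
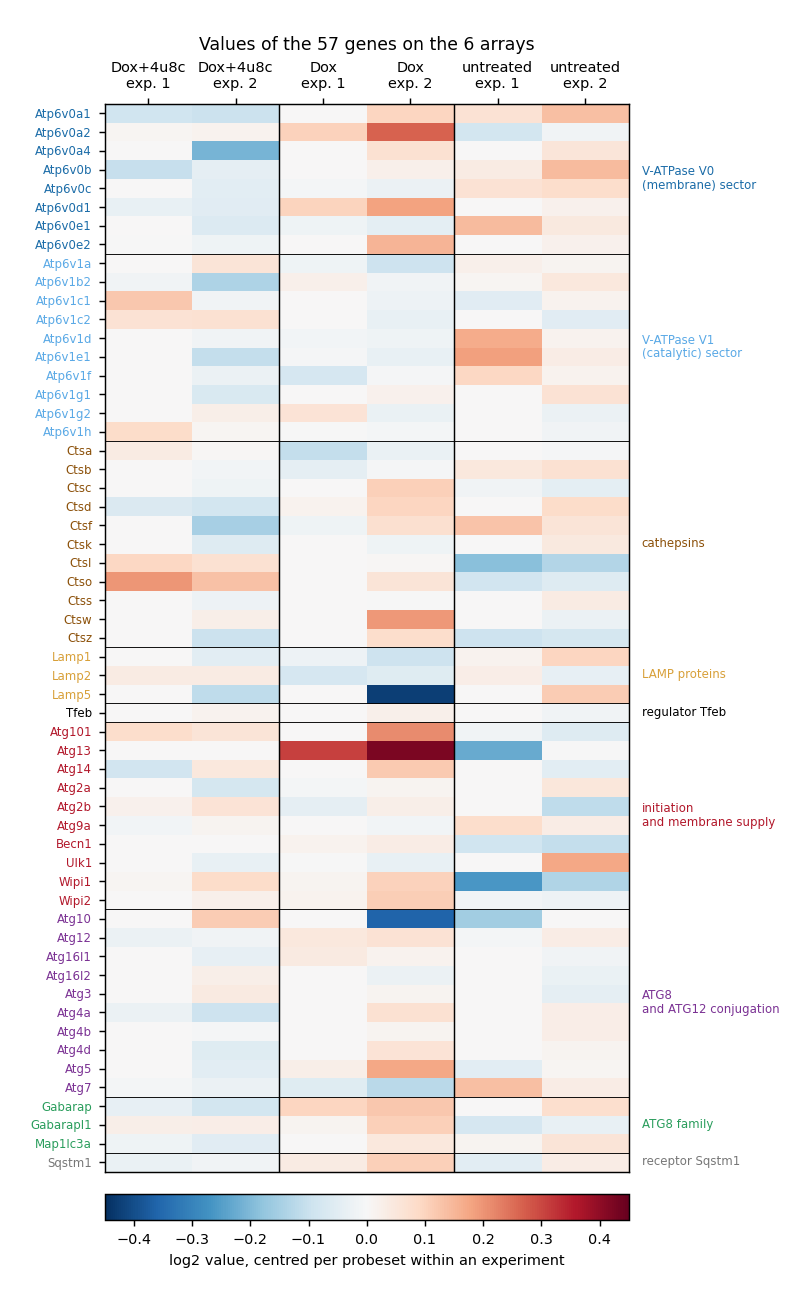
Values of the 57 genes (rows, grouped and coloured by role) on the 6 arrays (columns: Dox+4u8c, Dox and untreated, experiments 1 and 2), as log2 values centred per probeset within an experiment. Colour runs over blue (below 0), white (0) and red (above 0). Atg13 is the deepest red gene on both Dox arrays (0.31 and 0.42), and the Dox array of experiment 2 also holds the lowest values, in Lamp5 (−0.42) and Atg10 (−0.36).

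Atg13 had the largest change with Dox among the 57 genes. Its log2 values were 0.00 and 0.00 on the Dox+4u8c arrays, 0.31 and 0.42 on the Dox arrays and −0.23 and 0.00 on the untreated arrays (experiments 1 and 2). The Dox array was the highest of its experiment both times, whereas the Dox+4u8c and untreated values met in experiment 2. Atg13 rose by 0.48 with Dox (1.39 fold, SE 0.06, 95% interval 0.32 to 0.63, limma adjusted p = 0.0106), by 0.53 in experiment 1 and 0.42 in experiment 2. The change with Dox+4u8c against Dox alone was −0.37 (95% interval −0.52 to −0.21, adjusted p = 0.0556), and that with Dox+4u8c against untreated cells was 0.11 (−0.04 to 0.27, adjusted p = 0.481), so that neither passed the test. The call with Dox was lost without the untreated array of experiment 1 (log2 change 0.39, adjusted p = 0.0695), and it held without the wide-spread Dox array of experiment 2 (0.48, adjusted p = 0.0162). The difference between Dox+4u8c and Dox passed the test only without the Dox array of experiment 1 (−0.37, adjusted p = 0.0376), which leaves the widely spread Dox array as the only one of its group. Atg13 had a single probeset.

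Wipi1 was the other gene past the test. Its values were 0.01 and 0.08 on the Dox+4u8c arrays, 0.01 and 0.10 on the Dox arrays and −0.26 and −0.14 on the untreated arrays. The untreated arrays were the lowest in both experiments, and those of Dox+4u8c and Dox lay close together. Wipi1 rose by 0.26 with Dox (1.20 fold, SE 0.05, 95% interval 0.14 to 0.37, limma adjusted p = 0.0291). The value with Dox+4u8c against untreated cells was of like size, 0.25 (0.13 to 0.36, adjusted p = 0.0593), and the difference between Dox+4u8c and Dox was −0.01 (−0.12 to 0.10, adjusted p = 0.947), an interval that leaves room for a small change either way. The Dox call was lost without the experiment term (adjusted p = 0.0792) and without any single array other than the Dox array of experiment 1. The change was 0.26 without the Dox array of experiment 2, and 0.24 and 0.28 without the untreated arrays of experiments 1 and 2. Without either Dox+4u8c array it stayed at 0.26, as these arrays enter the comparison only through the spread. Leaving out either Dox array gave 1 and the same fit for Dox+4u8c against untreated cells, since the Dox array left adds nothing to that comparison. The change there was again 0.25. The 2 probesets of Wipi1 had the same direction but different sizes, with Dox minus untreated at 0.38 and 0.14 (means of the experiments).

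The sequences at the start sites of both genes are shown because these were the only 2 of the 57 genes past the test. Each window holds 250 bases before and 50 bases after a transcription start (RefSeq, rat build GRCr8), written 5′ to 3′ on the strand of the gene. Which transcript gives the start is not stated in the sources used here, and the start of Wipi1 lies 386 bases inside the annotated gene. They were searched on both strands for the letters TCACGTGA, the centre of the CLEAR element that TFEB and TFE3 bind, CACGTG, the E-box core that lies within it, TGATGNAA, the element of C/EBP-ATF dimers such as ATF4 with CHOP, and TGACGTG, a core bound by XBP1 and ATF6. None of the 4 was found in either window, which are therefore in lower case throughout.
Atg13 (chr3:98136692-98136991, minus strand): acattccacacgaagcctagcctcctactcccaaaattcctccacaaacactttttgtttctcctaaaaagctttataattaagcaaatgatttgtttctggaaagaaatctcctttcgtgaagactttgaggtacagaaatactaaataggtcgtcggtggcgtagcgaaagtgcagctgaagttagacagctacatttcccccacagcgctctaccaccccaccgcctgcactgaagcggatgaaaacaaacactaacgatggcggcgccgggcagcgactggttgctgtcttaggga
Wipi1 (chr10:95079244-95079543, minus strand): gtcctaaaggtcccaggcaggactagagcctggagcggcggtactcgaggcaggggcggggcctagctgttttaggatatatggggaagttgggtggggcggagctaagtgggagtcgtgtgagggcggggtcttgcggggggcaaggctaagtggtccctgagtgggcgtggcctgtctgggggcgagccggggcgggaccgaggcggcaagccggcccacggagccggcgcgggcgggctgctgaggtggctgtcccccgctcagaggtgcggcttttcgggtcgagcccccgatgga

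The other 8 initiation and membrane supply genes had changes between −0.10 (Ulk1) and 0.14 (Atg101) with Dox against untreated cells, and 0 of them passed the test. The median log2 change of these 10 genes, Atg13 and Wipi1 included, was 0.08. In both experiments 5 were higher and 3 lower, beside 26.6% and 24.8% of all genes. Becn1, the scaffold of the lipid kinase complex, had values of 0.00 and 0.00 with Dox+4u8c, 0.01 and 0.03 with Dox and −0.09 and −0.11 untreated. The untreated arrays were again the lowest in both experiments, but the change with Dox, 0.12 (95% interval 0.01 to 0.23, adjusted p = 0.208), did not pass the test. Ulk1, the kinase of the complex that Atg13 holds together, changed by −0.10 (−0.26 to 0.06, adjusted p = 0.431), with nearly all of the difference in experiment 2. Wipi2, which recruits the conjugation machinery, changed by 0.08 (adjusted p = 0.425). Atg101, the partner that stabilises Atg13 and a gene singled out after its values were seen, changed by 0.14 (−0.03 to 0.32, adjusted p = 0.345), by 0.02 in experiment 1 and 0.27 in experiment 2. With Dox+4u8c against Dox alone the 10 genes had a median of −0.03, with 1 higher and 5 lower in both experiments, beside 19.0% and 26.9% of all genes.

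**Figure D2:**
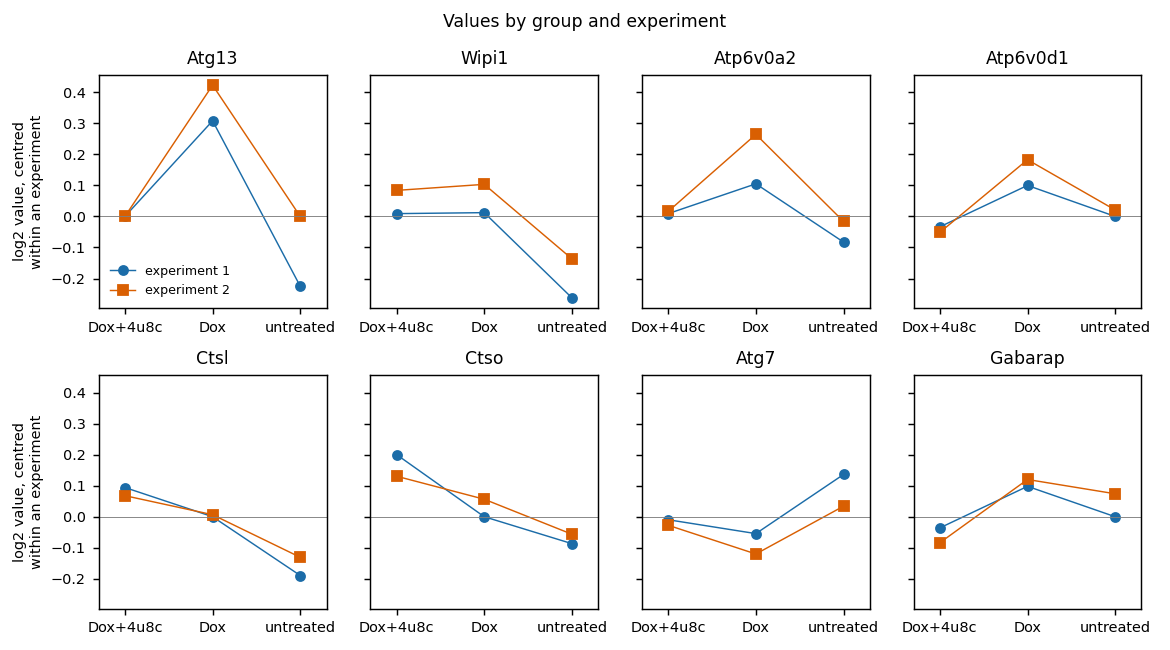
Log2 values, centred per probeset within an experiment (y axis), of 8 genes with Dox+4u8c, Dox and no treatment (x axis), in experiment 1 (blue circles) and experiment 2 (orange squares), with lines joining the arrays of an experiment. Atg13 peaks on the Dox arrays, Wipi1 is lowest on the untreated arrays, and the other 6 genes, shown for their shape over both experiments, did not pass the test in any comparison.

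The 8 V0 genes of the V-ATPase did not move as 1 block with Dox. Their median was −0.02, and 0 passed the test, beside 6.43% of all genes. In both experiments 2 were higher and 4 lower than untreated, beside 26.6% and 24.8% of all genes. Atp6v0a2, an isoform of the large a subunit that lines the proton path, named after its values were seen, had values of 0.01 and 0.02 with Dox+4u8c, 0.10 and 0.26 with Dox and −0.08 and −0.02 untreated. In the mean of its 2 probesets the Dox arrays were the highest in both experiments. The change was 0.23 (95% interval 0.10 to 0.37, limma adjusted p = 0.0634) and did not pass the test. On 1 of the 2 probesets Dox (0.00) lay below Dox+4u8c (0.02) in experiment 1. Atp6v0d1, which couples V0 to the stalk of V1, had values of −0.03 and −0.05 with Dox+4u8c, 0.10 and 0.18 with Dox and 0.00 and 0.02 untreated. Its Dox arrays were the highest as well, and the change was 0.13 (0.01 to 0.25, adjusted p = 0.215).

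With Dox+4u8c the V0 genes lay mostly lower. Their median against Dox alone was −0.11, beside −0.01 for all genes, and 0 passed the test, beside 1.79% of all genes. In both experiments 5 of 8 were lower and 0 higher, beside 26.9% and 19.0% of all genes. The changes were −0.18 for Atp6v0d1 (limma adjusted p = 0.191) and −0.17 for Atp6v0a2 (adjusted p = 0.275). The 2 probesets of Atp6v0a2 gave −0.06 (0.02 and −0.14 in experiments 1 and 2) and −0.28. Atp6v0a1, an a subunit abundant in neurons, named after its values were seen, changed by −0.14 (adjusted p = 0.336). Against untreated cells the V0 median with Dox+4u8c was −0.11, beside 0.00 for all genes. In both experiments 6 of 8 genes were lower, beside 28.9% of all genes. The lowest value was that of Atp6v0a1 (−0.20, 95% interval −0.32 to −0.07, adjusted p = 0.125). These groups of subunits were looked at after earlier results were known, and the values are a description without a test of the group.

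The 10 V1 genes had medians of −0.02 with Dox and −0.03 with Dox+4u8c, both against untreated cells, and 0.02 with Dox+4u8c against Dox alone. None passed the test in any comparison, beside 1.79% to 6.43% of all genes per comparison. Atp6v1a, the catalytic A subunit, changed by −0.07 with Dox (95% interval −0.20 to 0.05, adjusted p = 0.477), and Atp6v1h, the regulatory H subunit, by 0.00 (−0.11 to 0.12, adjusted p = 0.986). Atp6v1e1, a stalk subunit named after its values were seen, was lower than untreated in both experiments with Dox (−0.13, adjusted p = 0.233) and with Dox+4u8c (−0.16, adjusted p = 0.194). The largest V1 value with Dox+4u8c against Dox alone was that of Atp6v1a, 0.08 (adjusted p = 0.61).

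Among the 11 cathepsins 0 passed the test in any comparison, beside 1.79% to 6.43% of all genes per comparison. Their medians were 0.01 with Dox and 0.02 with Dox+4u8c against untreated cells. Ctsl, a cysteine endoprotease, had values of 0.09 and 0.07 with Dox+4u8c, 0.00 and 0.01 with Dox and −0.19 and −0.13 untreated. In both experiments the order was the same, with Dox+4u8c highest and untreated lowest. The change was 0.16 with Dox (95% interval 0.05 to 0.28, adjusted p = 0.12) and 0.24 with Dox+4u8c (0.12 to 0.36, adjusted p = 0.0706) against untreated cells. Without either Dox array, which is 1 and the same fit for this comparison, the Dox+4u8c value was again 0.24.

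Ctso, another cysteine cathepsin, named after its values were seen, had the same order, with 0.20 and 0.13 in Dox+4u8c cells, 0.00 and 0.06 in Dox cells and −0.09 and −0.06 in untreated cells. Its change with Dox+4u8c was 0.24 against untreated cells (0.11 to 0.36, adjusted p = 0.0888) and did not pass the test. Ctsb, the other widely expressed cysteine cathepsin, changed by −0.08 with Dox (−0.19 to 0.03, adjusted p = 0.397). Ctsd, the aspartic protease of the lysosome, changed by 0.01 with Dox (−0.11 to 0.14, adjusted p = 0.898) and by −0.13 with Dox+4u8c against Dox alone (−0.25 to −0.01, adjusted p = 0.413).

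Lamp1 and Lamp2, the abundant membrane proteins of the lysosome, were lower with Dox than untreated in both experiments by small amounts that did not pass the test, −0.11 (95% interval −0.25 to 0.02, adjusted p = 0.329) and −0.06 (−0.18 to 0.06, adjusted p = 0.524). Lamp5, a relative found mainly in neurons, named because it had the lowest value with Dox, lay at 0.00 on the 3 arrays of experiment 1 and at −0.11 with Dox+4u8c, −0.42 with Dox and 0.11 untreated in experiment 2. Its change with Dox of −0.27 (−0.55 to 0.02, adjusted p = 0.278) thus came from experiment 2 alone. Lamp5 was called with Dox only without the Dox array of experiment 1, as were Atg10, Atg101 and Atp6v0a2, when 6 of the 57 genes were called instead of 2.

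Tfeb, the regulator named for this pathway, had 1 probeset, whose values were equal on the 3 arrays of experiment 1. Its changes were 0.02 with Dox (95% interval −0.09 to 0.13, adjusted p = 0.853) and 0.01 with Dox+4u8c (−0.10 to 0.13, adjusted p = 0.912) against untreated cells. These are mRNA values, whereas TFEB is regulated mainly by its phosphorylation and place in the cell, which were not measured. Of the other MiT/TFE factors listed (Tfe3, Mitf and Tfec), 2 of 3 were measured and 0 passed the test.

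**Figure D3:**
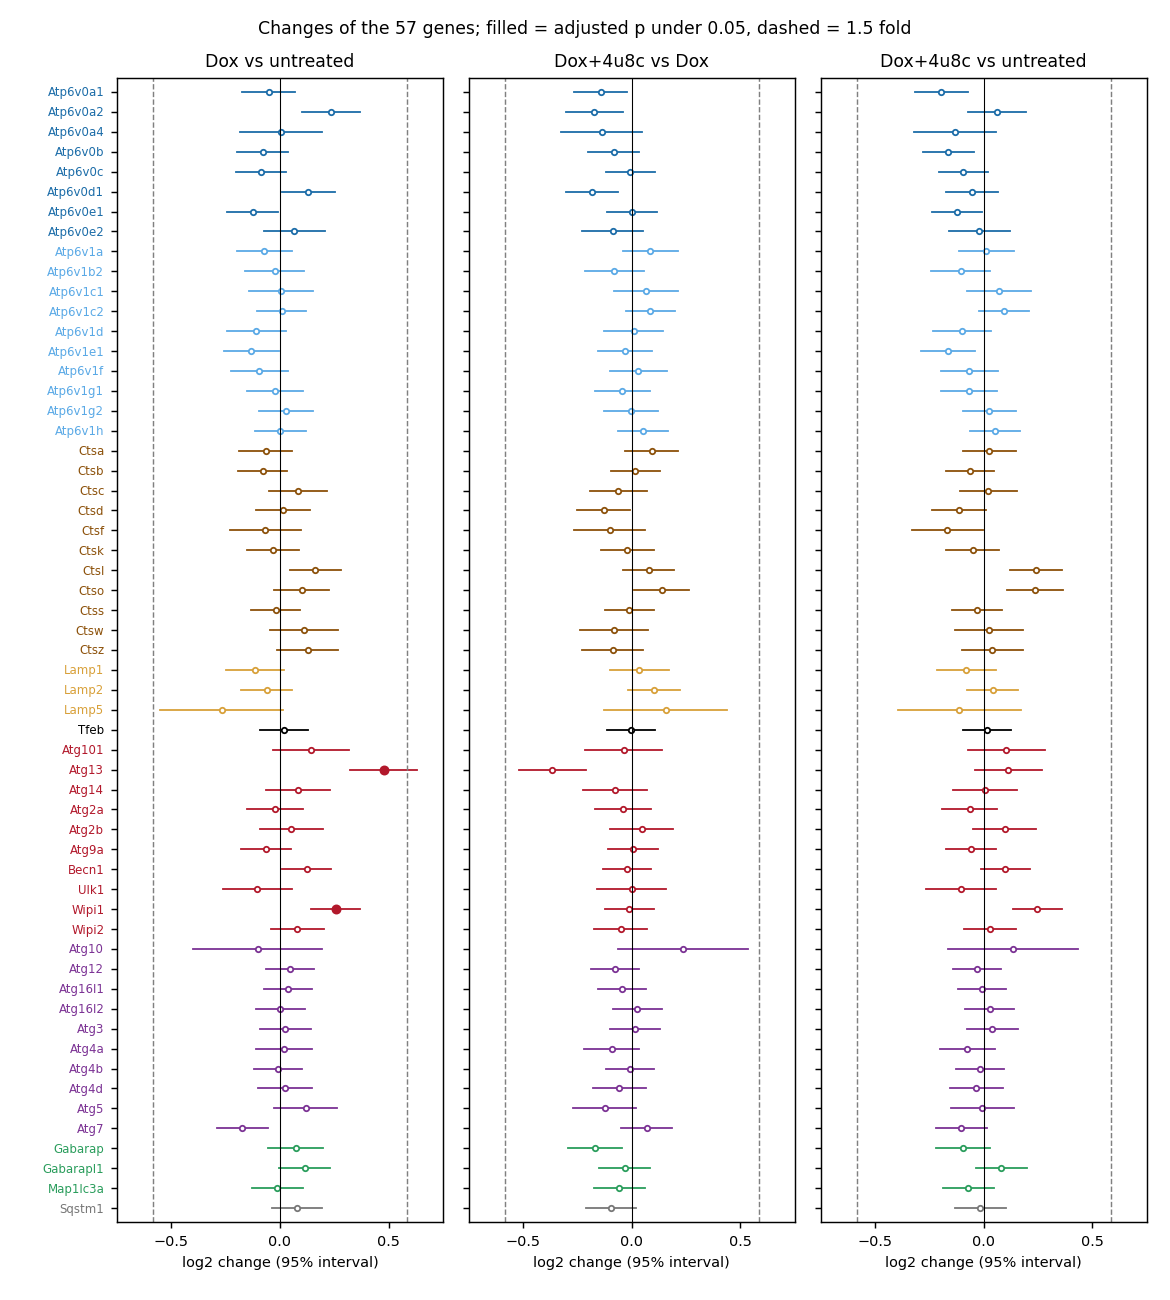
Log2 changes of the 57 genes (rows, coloured by role) with Dox against untreated cells (left), Dox+4u8c against Dox (middle) and Dox+4u8c against untreated cells (right), with 95% intervals from limma. Filled points are the calls, with an adjusted p under 0.05 (Atg13 and Wipi1, left panel), and dashed lines mark 1.5 fold, which is crossed by the interval of Atg13 alone.

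The letters of the CLEAR element were more frequent among these genes than among all. A start site window was given for 48 of the 57 genes, and TCACGTGA stood in 5 of the 48 (10.4%), against 1.58% of the 10401 windows of measured genes and 0.777% of 33469 windows in all. Its core CACGTG, which every TCACGTGA contains, stood in 8 of 48 (16.7%), against 9.31% of the windows of measured genes and 6.42% of all windows. TGATGNAA and TGACGTG each stood in 0 of 48, against 1.96% and 2.38% of the windows of measured genes and 3.98% and 1.81% of all windows. A match is a description of letters and not a site of binding. The 5 stretches are shown because these are the genes whose start sites carry the letters of the TFEB element. The element is in capitals, and its first base lies at −17 (Atg3), −53 (Atp6v0d1), 24 (Atp6v0e1), −11 (Ctsd) and −66 (Lamp1) relative to the start site (RefSeq, GRCr8). The start site used for Lamp1 lies 7780 bases inside the annotated gene, so that its stretch is at an internal start.
Atg3 (chr11:69159274-69159313, minus strand): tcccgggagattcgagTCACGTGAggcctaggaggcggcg
Atp6v0d1 (chr19:50357278-50357317, minus strand): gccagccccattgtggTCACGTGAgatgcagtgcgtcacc
Atp6v0e1 (chr10:17007110-17007149, minus strand): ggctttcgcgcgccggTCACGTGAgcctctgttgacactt
Ctsd (chr1:206968809-206968848, minus strand): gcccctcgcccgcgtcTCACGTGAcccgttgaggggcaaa
Lamp1 (chr16:83075106-83075145, minus strand): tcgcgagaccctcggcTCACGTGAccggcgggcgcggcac

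None of these 5 genes passed the test in any comparison, beside 1.79% to 6.43% of all genes per comparison. With Dox against untreated cells their log2 changes were 0.03 for Atg3, which hands the ATG8 proteins to lipid, 0.13 for Atp6v0d1, −0.13 for Atp6v0e1, a small V0 subunit, 0.01 for Ctsd and −0.11 for Lamp1, and so had no common direction. With Dox+4u8c against Dox alone they were 0.01, −0.18, 0.00, −0.13 and 0.03 in the same order.

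The 10 conjugation genes had medians of 0.02 with Dox against untreated cells and −0.03 with Dox+4u8c against Dox. In these comparisons 0 passed the test, beside 6.43% and 1.79% of all genes. Atg7, the E1-like enzyme that activates both ATG8 proteins and ATG12, had values of −0.01 and −0.03 with Dox+4u8c, −0.05 and −0.12 with Dox and 0.14 and 0.03 untreated. In the mean of its 3 probesets the Dox arrays were the lowest and the untreated arrays the highest in both experiments. The change with Dox was −0.17 (95% interval −0.29 to −0.05, limma adjusted p = 0.104) and did not pass the test. The single probesets gave −0.26, −0.18 and −0.08 with Dox against untreated cells. None of them had Dox below Dox+4u8c in both experiments. Atg5 and Atg12, which together form part of the ligase for ATG8 proteins, changed by 0.12 (−0.03 to 0.26, adjusted p = 0.34) and 0.04 (−0.07 to 0.16, adjusted p = 0.619). Atg10, the E2-like enzyme of ATG12, named after its values were seen, had opposite directions in the 2 experiments, 0.15 in experiment 1 and −0.36 in experiment 2, and the widest standard error of the 57 genes, 0.12.

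The ATG8 family was represented by Gabarap, Gabarapl1 and Map1lc3a, of which 0 passed the test, beside 1.79% to 6.43% of all genes per comparison. Gabarap had values of −0.04 and −0.08 with Dox+4u8c, 0.10 and 0.12 with Dox and 0.00 and 0.07 untreated. The Dox+4u8c arrays were the lowest and the Dox arrays the highest in both experiments, and the change with Dox+4u8c against Dox was −0.17 (95% interval −0.29 to −0.04, adjusted p = 0.251). Gabarapl1 changed by 0.11 with Dox (−0.01 to 0.23, adjusted p = 0.272) and Map1lc3a by −0.01 (−0.13 to 0.11, adjusted p = 0.91).

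Sqstm1, which encodes p62, had 4 probesets and changed by 0.08 with Dox (95% interval −0.04 to 0.20, adjusted p = 0.407) and by −0.09 with Dox+4u8c against Dox (−0.21 to 0.02, adjusted p = 0.541). Its probesets disagreed in direction. With Dox against untreated they gave 0.08, 0.10, 0.17 and −0.02, and with Dox+4u8c against Dox 0.01, 0.01, −0.18 and −0.21.

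**Figure D4:**
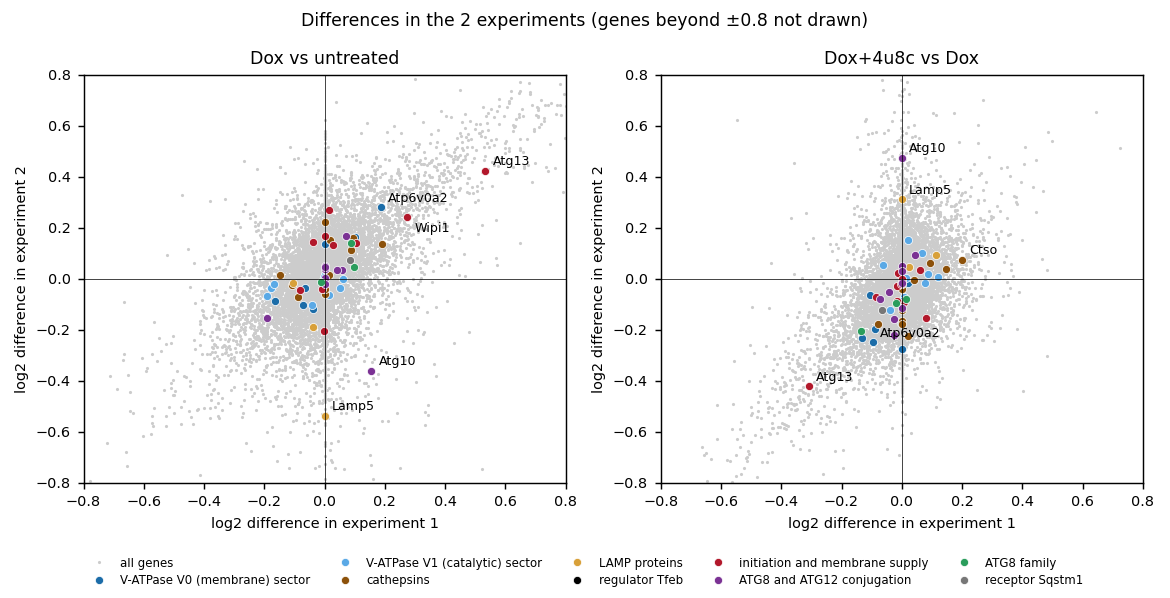
Log2 difference in experiment 1 (x axis) and in experiment 2 (y axis) for Dox against untreated cells (left) and Dox+4u8c against Dox (right), for all genes (grey) and the 57 genes (coloured by role). Differences beyond 0.8 in size are not drawn. Atg13 lies at 0.53 and 0.42 on the left and at −0.31 and −0.42 on the right, while Lamp5 and Atg10 differ between the experiments.

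Further genes of the pathway were counted from 9 lists without members of the 57 genes, 144 genes of which 129 were measured. With Dox 7 of the 129 rose (5.43%, beside 4.42% of all genes called higher) and 0 fell (beside 2.01% called lower). With Dox+4u8c 0 rose and 1 fell against Dox (0.78%, beside 1.61% of all genes called lower), and 1 rose and 1 fell against untreated cells (1.55% together, beside 2.3% called in either direction). Of the 15 accessory, assembly and chloride exchange genes of the V-ATPase, the 9 genes of mannose 6-phosphate tagging and sorting and the 9 selective receptors measured, 0 passed the test in any comparison. Among all genes 1.79% to 6.43% passed per comparison. A list of autophagy genes described as ATF4 or CHOP targets in mouse cells had 9 measured genes, all of them among the 57 genes. It therefore adds no further gene. Of the 9 genes 0 passed the test, and the median with Dox was 0.04.

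Among 18 other autophagosome genes measured, 3 rose with Dox, beside 4.42% of all genes called higher. The 129 list genes together had 5.43%, and no single list was tested as a group. Tmem41b and Vmp1 encode lipid scramblases of the ER that autophagosome formation needs, and Wdr45 encodes a relative of Wipi1. Tmem41b had values of 0.00 and 0.07 with Dox+4u8c, 0.16 and 0.34 with Dox and −0.24 and −0.07 untreated, and rose by 0.40 with Dox (limma adjusted p = 0.00862). Wdr45 had 0.00 and 0.07, 0.22 and 0.36, and −0.15 and −0.07 in the same order of groups, and rose by 0.40 (adjusted p = 0.00727). Vmp1 had 0.00 and 0.00, 0.11 and 0.27, and −0.20 and 0.00, and rose by 0.29 (adjusted p = 0.0455). All 3 genes were highest on the Dox arrays of both experiments, as was Atg13. Against Dox alone, Dox+4u8c gave −0.21 for Tmem41b (adjusted p = 0.14), −0.25 for Wdr45 (adjusted p = 0.0702) and −0.19 for Vmp1 (adjusted p = 0.289), none past the test.

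Among 17 membrane proteins of the lysosome measured, 2 rose with Dox, beside 4.42% of all genes called higher. Ctns encodes cystinosin, which exports cystine, and had values of 0.00 and 0.00 with Dox+4u8c, 0.22 and 0.51 with Dox and −0.30 and −0.05 untreated. It rose by 0.54 with Dox (limma adjusted p = 0.0135), and its change with Dox+4u8c against Dox was −0.37 (adjusted p = 0.096). Slc17a5 encodes sialin, the sialic acid exporter, and had values of 0.00 and −0.08 with Dox+4u8c, 0.27 and 0.29 with Dox and 0.00 and 0.04 untreated. Slc17a5 rose by 0.26 with Dox (adjusted p = 0.0367) and fell by 0.32 with Dox+4u8c against Dox (adjusted p = 0.0419), and was the only 1 of the 57 and 129 genes to pass both tests. The 2 tests share the Dox arrays and so are not independent. Each of these calls ended without some array. That of Ctns ended without either untreated array (log2 changes of 0.49 and 0.59). Both of Slc17a5 ended without any array but the Dox array of experiment 1. Leaving out 1 array gave 0.23 to 0.30 for its rise and −0.37 to −0.27 for its fall. A Dox+4u8c array left out of the rise, or an untreated array left out of the fall, altered only the spread.

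Ddit4, a stress-induced inhibitor of mTORC1, was the 1 of 24 mTORC1 genes past the test. Of all genes, 4.42% were called higher with Dox and 1.17% with Dox+4u8c, both against untreated cells. Its values were 0.00 and 0.15 with Dox+4u8c, 0.11 and 0.36 with Dox and −0.54 and −0.15 untreated, with the untreated arrays lowest in both experiments. Ddit4 rose by 0.58 with Dox (limma adjusted p = 0.00627) and by 0.42 with Dox+4u8c (adjusted p = 0.0363), both against untreated cells, and the difference between Dox+4u8c and Dox was −0.16 (adjusted p = 0.445). Among 8 receptors that bring ER to the lysosome, 1 rose with Dox, beside the same 4.42% of all genes. This was Ccpg1, by 0.28 (adjusted p = 0.0301), with 0.18 and 0.29 on the Dox arrays against −0.05 and −0.06 on the untreated arrays. Among 27 hydrolases and activators measured, 0 passed the test with Dox, beside 6.43% of all genes. With Dox+4u8c against untreated cells 1 fell, beside 1.13% of all genes called lower. It was Npc2, the cholesterol-binding protein of the lumen, which fell by 0.34 (adjusted p = 0.0495).

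The calls of Tmem41b and Wdr45 were lost without either untreated array (adjusted p of 0.0718 and 0.0575 for Tmem41b, 0.0584 and 0.0656 for Wdr45). Those of Vmp1 and Ccpg1 were lost without any array but the Dox array of experiment 1. Leaving out 1 array gave changes of 0.24 to 0.35 and 0.23 to 0.34. Without either Dox+4u8c array only the spread differed, and the changes stayed at 0.29 and 0.28. The rise of Ddit4 with Dox held without each array in turn (adjusted p of 0.00469 to 0.0452) but not without the experiment term (adjusted p = 0.0876), while its rise with Dox+4u8c and the fall of Npc2 were lost without any Dox+4u8c or untreated array (adjusted p of 0.0702 to 0.309 and 0.088 to 0.348). Both were also lost without the experiment term (adjusted p of 0.236 and 0.0896), and the fall of Npc2 under 3 other settings (0.0508 to 0.0545). The fit without that term ended the Dox calls of Tmem41b (0.0569), Vmp1 (0.112), Ctns (0.0684) and Ccpg1 (0.0542) as well.

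**Figure D5:**
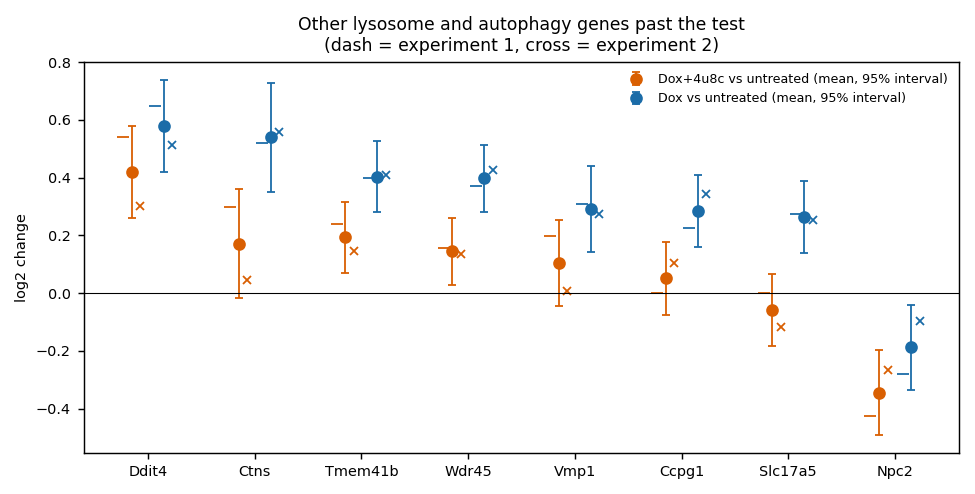
Log2 changes against untreated cells of the 8 further genes past the test in any comparison, with Dox+4u8c (orange) and with Dox (blue). Points are means over the 2 experiments with 95% intervals from limma, dashes mark experiment 1 and crosses experiment 2. The Dox values of the first 7 genes lie between 0.26 and 0.58, and those of Npc2 lie below 0 in both groups.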

How the data were processed

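Total RNA of the 6 samples was hybridized to Affymetrix rat arrays, 1 colour per array. The deposited table holds log2 values that the authors made with RMA (background correction, normalization and a summary over the probes of a set). RMA is named in the submitters' processing notes without a version. Centring per probeset was seen in both experiments but in different forms: experiment 1 had a median of 0 over its 3 arrays in 100% of probesets, and experiment 2 had 2 arrays of equal size and opposite sign in 48.9% (0% in experiment 1, tolerance 1e-05) and a median of 0 in 0.84%. Signal over background could not be given and no filter on dim probesets was applied. Precision is limited by the number of arrays.

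Of 25476 probesets, 52 were controls, 7068 had no symbol in the platform annotation, 378 had several and 17978 had 1. The last were averaged per gene, which gave 12603 genes. All genes were fitted in R 4.3.3 with limma 3.58.1 (eBayes after lmFit, two-sided), the terms being the 3 groups and the experiment (2 residual and 4.25 prior degrees of freedom), with Benjamini-Hochberg adjustment over all genes of a comparison and calls at 0.05. Arrays with the same replicate number were treated as 1 experiment, since the methods describe independent experiments and the form of the centring differs between the replicate numbers, which shows sets of processing and not that cells were grown together. Correlated over all genes, the deviations of same-numbered arrays of 2 groups had r of 0.03 (Dox+4u8c and Dox), 0.10 (Dox+4u8c and untreated) and 0.03 (Dox and untreated), and centring removes any offset that they share. As the methods describe the 2 arrays of a group only as independent experiments with 1 clone, p-values measure the spread between these arrays.

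The procedure was tested on simulated data for Dox against untreated cells over 12603 genes, where it called 80% of 100 genes changed 1.5 fold, 94% of 100 genes changed 2 fold and 4 of 12403 unchanged genes. The members and lists were chosen with earlier results of these data known. Genes named were those called in any comparison, a list of central members where measured alone, and up to 3 called genes of each further list and comparison. Others are said to be named after their values were seen. Start site windows and motif searches used RefSeq sequences of build GRCr8. Python 3.11.15 with matplotlib 3.10.9, numpy 2.4.6 and pandas 2.3.3 gave counts and figures. Alternatives were the fit without the experiment term, centring of each array, the median of probesets, leaving out _x_at and _s_at probesets, robust moderation, a 1.5 fold rule, each experiment alone, and leaving out each array.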

Additional observations from a re-analysis of the deposited data

How the results depend on the processing

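The 2 genes called with Dox, Atg13 and Wipi1, were also called with each array centred on its median, with the median of probesets, without _x_at and _s_at probesets and with robust moderation. Without the experiment term (no replicate block) the count was 1 (Atg13), with Wipi1 at an adjusted p of 0.0792, and at 1.5 fold with no test it was 0. Leaving out 1 array gave counts of 0 to 6 with Dox against untreated cells (0 without the untreated array of experiment 1, 6 without the Dox array of experiment 1, 1 otherwise), 0 to 3 with Dox+4u8c against Dox (3, Atg10, Atg13 and Lamp5, without the Dox array of experiment 1) and 0 to 3 with Dox+4u8c against untreated cells (3, Ctsl, Ctso and Wipi1, without either Dox array). With 1 array left in a group, its spread is assumed to be that of the other groups. That array adds nothing to the comparison of the 2 other groups, so that leaving out either array of the group gives the same fit. An array left out of the third group alters the spread of a comparison and not its size. The median change with Dox of the 57 genes was −0.0038 with each array centred, against 0.0065 in the fit as reported, and 0 and 0.0117 in experiments 1 and 2 alone. The fit without the experiment term also ended the Dox calls of Ccpg1 (adjusted p = 0.0542), Ctns (0.0684), Ddit4 (0.0876), Tmem41b (0.0569) and Vmp1 (0.112) and the Dox+4u8c calls against untreated cells of Ddit4 (0.236) and Npc2 (0.0896). It changed no other call of a named gene. Npc2 was lost too with arrays centred (0.0545), the median of probesets (0.0508) and robust moderation (0.0509), and the fall of Slc17a5 with arrays centred (0.0503). The cause was not tested.

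Single genes were followed through the alternatives for 21 named members and 8 further genes, which leaves out genes named after their values were seen, such as Atg10, whose directions differed between the experiments. Among those followed, these directions turned. With arrays centred, Dox+4u8c against Dox gave 0.0014 for Wipi1, 0.012 for Ulk1 and 0.0086 for Tfeb, and Dox gave −0.0080 for Atp6v1h. With the median of probesets, Dox+4u8c against untreated cells gave 0.0040 for Sqstm1, 0.0067 for Atg5 and 0.0072 for Atg12. Leaving out 1 array gave, with Dox against untreated cells, −0.032 to 0.0068 for Map1lc3a, −0.0098 to 0.039 for Ctsd and −0.017 to 0.022 for Atp6v1h. With Dox+4u8c against Dox it gave −0.028 to 0.0055 for Wipi1, −0.054 to 0.053 for Ulk1, −0.015 to 0.0072 for Tfeb, −0.068 to 0.0034 for Gabarapl1, −0.0088 to 0.077 for Lamp1 and −0.0025 to 0.036 for Ctsb. With Dox+4u8c against untreated cells it gave −0.045 to 0.016 for Sqstm1, −0.0021 to 0.031 for Tfeb, −0.0056 to 0.064 for Wipi2, −0.080 to 0.069 for Atg5, −0.037 to 0.061 for Atp6v1a and −0.0031 to 0.11 for Ccpg1.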

Other observations

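The ATG8 genes without a probeset of their own were seen only on shared probesets. The probeset shared by Map1lc3b and Map1lc3b2 differed by 0.10 and 0.01 with Dox against untreated cells and by −0.16 and −0.28 with Dox+4u8c against Dox (log2, experiments 1 and 2). The 2 probesets shared by Gabarapl2 and Gabarapl3 lay at −0.08 and −0.08, and at −0.08 and −0.14, with Dox against untreated cells. Which gene of a pair gave the signal is unknown.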
